A study of Homo sapiens with 6 samples.

Results

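The 33 genes described here line 10.72 Mb of the short arm of human chromosome 9, from MPDZ and NFIB to ELAVL2, with the cyclin-dependent kinase inhibitor locus CDKN2A near one end. They are 33 of the 60623 genes in the count table and were taken from a list of symbols, all of which were found. Of these genes 32 are annotated as protein-coding, and CDKN2B-AS1 is an antisense RNA. They were chosen by their read counts in these 6 libraries, and the choice sets genes without reads in the shSTN1 libraries apart from lowered and raised neighbours. All differences between groups of the 33 genes are therefore given as descriptions, without a test. RNA was sequenced in 3 libraries labelled shSTN1, a knockdown of STN1 by hairpin, and in 3 labelled shControl, whose descriptions read scramble and whose genotype reads WT. STN1 belongs to the CST complex, with CTC1 and TEN1, which helps to copy telomeres. The labels give PANC-1, a human line grown from a pancreatic carcinoma, for all 6, and they name no clone, drug or time point. The genotype field names STN2 and STN3 for shSTN1 replicates 2 and 3, while every title says shSTN1, and grouping followed the titles.

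CDKN2A encodes p16INK4a and, from another first exon read in another frame, p14ARF. p16INK4a binds CDK4 and CDK6 and so keeps the retinoblastoma protein active, and p14ARF holds back MDM2 and so stabilises p53. CDKN2B, its neighbour, encodes p15INK4b, a further inhibitor of CDK4 and CDK6, and CDKN2B-AS1, also called ANRIL, is transcribed across it on the opposite strand. The locus is one of the most often deleted in human cancer and in pancreatic carcinoma, and the neighbouring gene MTAP, which recycles methylthioadenosine from polyamine synthesis, is often lost with it. PANC-1 is known as a line that lacks CDKN2A.

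The libraries held 17357223 to 23336942 counted reads. STN1, the targeted gene, had 303, 306 and 275 reads in the shSTN1 libraries, against 387, 346 and 278 in control, and the exact two-sided permutation test gave p = 0.3, where the smallest p this design allows is 0.1. The groups overlapped, with means of 14.8 ± 0.793 CPM in shSTN1 and 16.4 ± 1.95 CPM in control, where CPM are read counts scaled to the size of each library in units per megaread. CDKN2A reads in the control libraries, described in detail further on, go against what is known of PANC-1, and leaving these libraries out would leave no comparison. Other markers also moved with the groups, and their lists were chosen with earlier results of these data known. Over all 17451 genes tested, 36.6% were higher and 39.0% lower in shSTN1 without overlap. The summed level of 12 ductal and carcinoma epithelium markers was 7973 to 8086 CPM in shSTN1 and 1409 to 1522 CPM in control, with 10 markers higher without overlap. The groups overlapped for CEACAM6, with 12 reads in shSTN1 and 13 in control, and TFF1, with 5 and 1. Of 12 genes used as markers of a human embryonic kidney line, 10 were lower without overlap, with summed levels of 87.3 to 90.8 CPM in shSTN1 and 1114 to 1183 CPM in control. SALL1, HMX1 and BEX1 of that list had 0 reads in shSTN1, TCEAL2 had 0 in control, and PAX2 was higher without overlap, at 62.4 ± 1.96 CPM in shSTN1 and 24.2 ± 0.742 CPM in control. Leukocyte markers summed to 1.6 to 2.1 CPM in shSTN1 and 1.03 to 1.40 CPM in control, and CD3E and MS4A1 had 0 reads in every library. Fibroblast markers summed to 147 to 162 CPM in shSTN1 and 64.6 to 78.4 CPM in control, most of it from COL1A1, at 124 ± 6.91 CPM in shSTN1 and 46.7 ± 3.16 CPM in control. Of that list LUM was lower without overlap, with 2 reads in shSTN1 and 30 in control, DCN had 0 reads in shSTN1 and 6 in control, and COL1A2 had 2 reads in shSTN1 and 1 in control. The part of these differences in the results on 9p was not tested, and the hairpin and any difference in cells between the groups cannot be told apart. In bulk RNA, fewer cells with a transcript and less of it per cell cannot be told apart either.

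Sequences upstream of the starts of CDKN2A, CDKN2B, MTAP and DMRTA1 are shown because the reads of these genes mark the border between genes with and without reads in the shSTN1 libraries. Each is the 250 bases before a RefSeq start (GRCh38.p14), on the strand of the gene, and capitals mark GC boxes, searched as GGGCGG and its complement CCGCCC on both strands. CDKN2A has a start for each of its reading frames, both on the minus strand, at chr9:21995325-21995574 for the outer one and chr9:21974858-21975107 for the inner one. The other windows are chr9:22009306-22009555 (CDKN2B, minus strand), chr9:21802386-21802635 (MTAP, plus strand) and chr9:22446574-22446823 (DMRTA1, plus strand).
CDKN2A outer start: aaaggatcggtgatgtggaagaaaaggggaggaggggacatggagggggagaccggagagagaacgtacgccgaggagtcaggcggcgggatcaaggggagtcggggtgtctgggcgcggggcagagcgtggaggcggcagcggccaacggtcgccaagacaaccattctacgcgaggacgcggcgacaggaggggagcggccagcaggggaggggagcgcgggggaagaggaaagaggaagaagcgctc
CDKN2A inner start: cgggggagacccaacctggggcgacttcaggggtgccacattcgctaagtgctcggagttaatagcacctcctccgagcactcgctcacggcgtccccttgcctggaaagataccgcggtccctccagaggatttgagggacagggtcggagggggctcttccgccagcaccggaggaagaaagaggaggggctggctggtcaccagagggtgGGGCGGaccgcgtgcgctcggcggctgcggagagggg
CDKN2B: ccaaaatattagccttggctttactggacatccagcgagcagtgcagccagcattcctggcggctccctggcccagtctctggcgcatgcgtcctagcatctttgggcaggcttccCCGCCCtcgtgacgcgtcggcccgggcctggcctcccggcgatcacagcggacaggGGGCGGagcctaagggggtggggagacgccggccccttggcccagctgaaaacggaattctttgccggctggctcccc
MTAP: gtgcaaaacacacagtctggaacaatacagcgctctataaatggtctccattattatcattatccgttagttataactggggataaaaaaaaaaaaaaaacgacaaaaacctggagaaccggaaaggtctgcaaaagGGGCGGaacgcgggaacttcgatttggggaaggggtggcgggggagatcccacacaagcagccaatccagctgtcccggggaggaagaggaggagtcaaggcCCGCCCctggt
DMRTA1: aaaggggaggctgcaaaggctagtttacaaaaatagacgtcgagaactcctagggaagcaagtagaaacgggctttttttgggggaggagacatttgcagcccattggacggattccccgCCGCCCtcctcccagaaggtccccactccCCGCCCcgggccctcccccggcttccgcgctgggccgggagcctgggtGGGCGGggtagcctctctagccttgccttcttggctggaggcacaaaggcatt
The outer CDKN2A window holds 0 GC boxes and 24 CpG dinucleotides, the inner one 1 GC box and 20 CpG, CDKN2B 2 and 18, MTAP 2 and 11, and DMRTA1 3 and 13. A GC box is found in 42.6% of the 35116 promoters of the RefSeq table, whose median is 11 CpG in the same length. Windows were found for 32 of the 33 genes, all but RRAGA, with 54 windows among them, of which 30 hold a GC box. Whether such matches bear on the reads of any of these genes was not tested. A match describes the letters of a window and says nothing of binding.

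The cell cycle inhibitor genes CDKN2A and CDKN2B had no reads in shSTN1. CDKN2A (ENSG00000147889.17, chr9:21967753-21995301, GRCh38) had 0 reads in each shSTN1 library, against 3968, 3882 and 3903 reads in control. That is 192 ± 18.9 CPM in control (SD, n = 3) and, with a floor of 3 reads over the shSTN1 group, at least 3812-fold lower in shSTN1. After RPS6 it had the second highest level per kilobase of annotated exon of all 33 genes in control, at 44.4 ± 4.37 CPM per kb. CDKN2B (chr9:22002903-22009363) had 0 reads in each shSTN1 library, against 124, 84 and 90 in control, at least 96.7-fold lower. CDKN2B-AS1 (chr9:21994778-22121097) had 0, 0 and 0 reads in shSTN1, against 75, 75 and 64 in control, at least 69.4-fold lower. The groups did not overlap for any of the 3 genes. The table counts reads per gene, so the p16INK4a and p14ARF transcripts cannot be separated. CDKN2B-AS1 overlaps CDKN2A over 524 bases and all 6461 bases of CDKN2B on the opposite strand, and without the strand setting of the counting some of the control reads may belong to the partner.

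The nearest genes with shSTN1 reads on either side of CDKN2A, apart from MTAP, whose gene reaches into the interval, were the pseudogene TUBB8P1 and DMRTA1, 634.5 kb apart (chr9:21812348-22446840). The interval is drawn by these reads, so the 0 reads of the 12 genes wholly within it are a description. TUBB8P1 is a processed pseudogene whose reads can be shared with its parent gene, so the border at the telomere side is uncertain. Of the 12 genes 8 had reads in control, 12363 in sum, nearly all from the listed CDKN2A, CDKN2B and CDKN2B-AS1. The unlisted genes among them had few reads. AL359922.2, an antisense RNA, had 0 reads in each shSTN1 library, against 23, 35 and 12 in control. All its 3017 bases lie within MTAP on the opposite strand, so its control reads may belong to MTAP. CDKN2A-DT, which lies beside the CDKN2A 3′ end on the other strand, had 0 reads in shSTN1, against 5, 8 and 2, and AL449423.1 had 0, against 3, 7 and 0. The genes in the interval with more than 3 control reads run from AL359922.2 to the end of CDKN2B-AS1, over 262.2 kb. Of all 25126 genes with more than 3 reads over the control libraries, 6.23% had 0 reads in shSTN1.

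**Figure D1:**
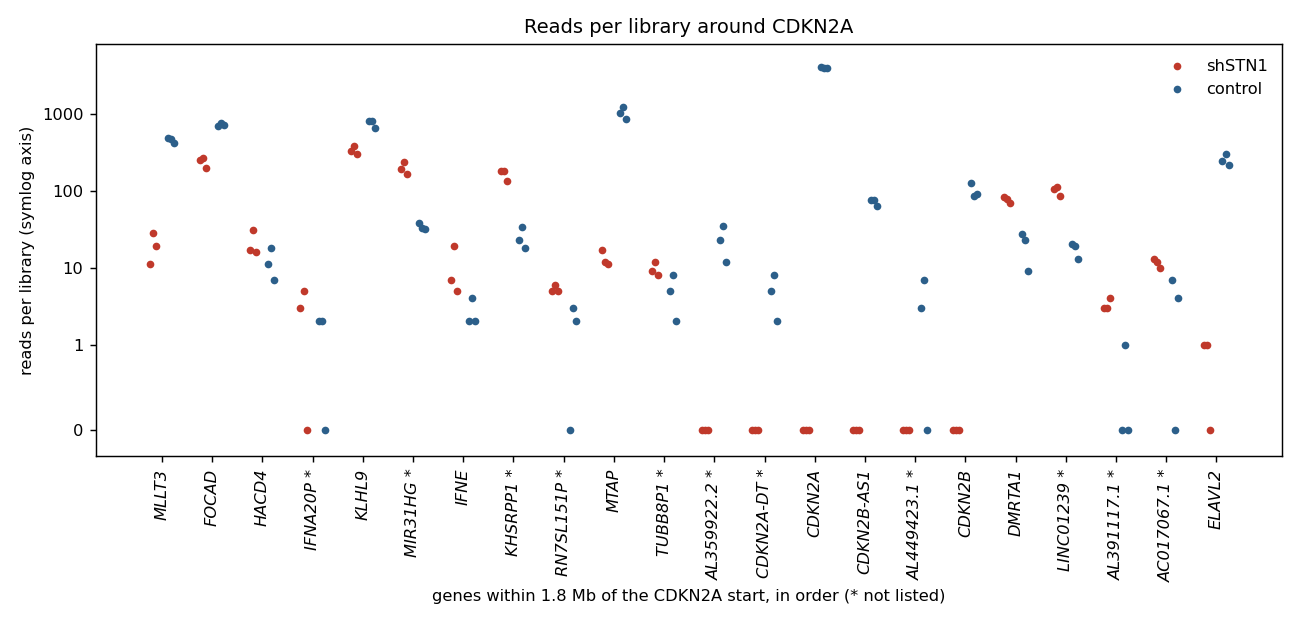
Reads per library for genes within 1.8 Mb of the CDKN2A start that had 10 or more reads over the 6 libraries, in chromosomal order, on an axis that is linear below 1 and logarithmic above; each point is 1 library, shSTN1 at the left of each gene and control at the right. From AL359922.2 to CDKN2B all shSTN1 points lie at 0, whereas MIR31HG, KHSRPP1, DMRTA1 and LINC01239 on either side have more reads in shSTN1 than in control.

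At the telomere side of this stretch MTAP kept a trace of reads. MTAP (chr9:21802543-21937651) had 17, 12 and 11 reads in shSTN1, against 1014, 1234 and 860 in control. The level was 0.668 ± 0.145 CPM in shSTN1 and 50.2 ± 4.48 CPM in control, 74.6-fold lower on the fitted scale (log2 fold change -6.22, SE 0.170). TUBB8P1, a tubulin pseudogene that lies inside MTAP on the opposite strand, had 9, 12 and 8 reads in shSTN1 and 5, 8 and 2 in control, so the lowest shSTN1 library matched the highest control library in reads. AL359922.1 overlaps MTAP over 135016 bases on the same strand and had 0 reads in both groups, and reads in exons the genes share may have gone uncounted.

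Several genes outside the interval were higher in shSTN1, while KLHL9, 0.66 Mb from the CDKN2A start, was 2.18-fold lower. DMRTA1, a gene of the doublesex-related transcription factor family and the first listed gene at the centromere side, had 82, 78 and 68 reads in shSTN1, against 27, 23 and 9 in control (3.81 ± 0.219 and 0.939 ± 0.413 CPM, log2 fold change 1.99, SE 0.380). IFNE, an interferon of epithelia, had 7, 19 and 5 reads in shSTN1, against 2, 4 and 2 in control, and did not pass the filter on low counts. All 1475 bases of IFNE lie within MIR31HG on the same strand, so its reads may belong to that transcript. For DMRTA1 and IFNE every shSTN1 library lay above every control library in CPM. Unlisted noncoding genes beside them passed the test. MIR31HG, the host transcript of miR-31, had 193, 234 and 163 reads in shSTN1, against 38, 33 and 32 in control (log2 fold change 2.55, edgeR adjusted p = 5.84e-14). KHSRPP1, a processed pseudogene whose reads can be shared with its parent gene, had a log2 fold change of 2.74 (edgeR adjusted p = 1.80e-13). LINC01239, at the centromere side, had 105, 111 and 86 reads in shSTN1, against 20, 19 and 13 in control (log2 fold change 2.57, edgeR adjusted p = 4.68e-11). AC017067.1 lies within LINC01239 on the same strand, so its reads may belong to that transcript. AC017067.1 had a log2 fold change of 1.67 (edgeR adjusted p = 0.0158), which became 0.0525 with DESeq2 and 0.126 without control replicate 2.

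The interferon genes of the region had hardly any reads. IFNB1, the interferon beta gene, had 0 reads in every library, and the 14 interferon alpha and omega genes of the span had 6 reads in shSTN1 and 1 read in control in sum. CER1, a secreted antagonist of Nodal and BMP signals, had 0 reads in every library too. SAXO1, which codes for a protein that stabilises microtubules, had 0 reads in shSTN1 and 1, 0 and 1 in control. No fold is given for these, since both groups lie at or under the floor of 3 reads, 0.0501 CPM over shSTN1 and 0.0487 CPM over control.

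Genes with no or hardly any reads in shSTN1 were also scattered along the region, apart from CDKN2A. CNTLN, the gene of centlein, a protein that links paired centrosomes, lies 4.68 Mb from the CDKN2A start at the telomere side. It had 0 reads in each shSTN1 library, against 292, 317 and 267 in control (14.2 ± 0.212 CPM), at least 284-fold lower. Of its listed neighbours, BNC2 at the telomere side overlapped between the groups and SH3GL2 at the centromere side was far lower in shSTN1. FREM1, a basement membrane protein gene, had 0 reads in shSTN1 and 11, 29 and 21 in control, at least 19.8-fold lower. SLC24A2, a sodium, calcium and potassium exchanger gene, had 0 reads in shSTN1 and 1, 0 and 6 in control. Its control libraries overlap the shSTN1 libraries at 0, and the fold of at least 2.27 rests mostly on control replicate 3.

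ELAVL2, which encodes the neuronal RNA-binding protein HuB and closes the region, lay just outside the zero-read genes, with 1, 1 and 0 reads in shSTN1, against 242, 299 and 212 in control. The ratio of control to shSTN1 was 366, with an exact 95% interval of 101 to 3031 for counting error only. FREM1 and SLC24A2, with the fewest control reads of the 6 genes at 0 in shSTN1, lay just inside. SH3GL2, the gene of endophilin A1 of synaptic vesicle recycling, had 5, 1 and 1 reads in shSTN1, against 118, 102 and 91 in control, a fitted 41.2-fold lower. Without shSTN1 replicate 1 its log2 fold change moved to -6.47, against -5.36 with it. MLLT3, whose product AF9 reads acylated histones and joins the super elongation and DOT1L complexes, had 11, 28 and 19 reads in shSTN1, against 477, 462 and 419 in control. It was 22.7-fold lower (log2 fold change -4.50, SE 0.344). ADAMTSL1, which encodes the matrix protein punctin, had 1, 4 and 2 reads in shSTN1, against 24, 22 and 10 in control, and was 7.40-fold lower. ADAMTSL1 overlaps SAXO1 over 52045 bases on the opposite strand. For ELAVL2, SH3GL2, MLLT3 and ADAMTSL1 no shSTN1 library reached the lowest control library.

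**Figure D2:**
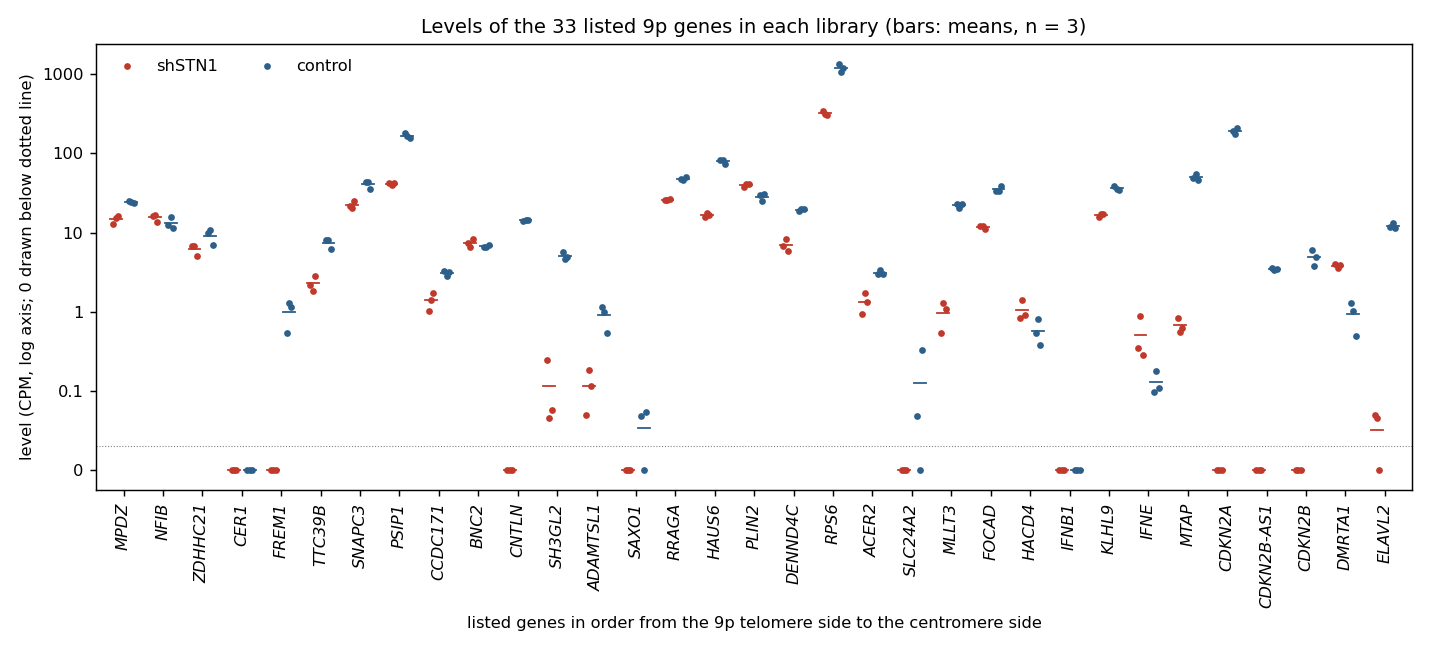
Level in CPM (logarithmic axis, 0 drawn below the dotted line) of each of the 33 listed genes in chromosomal order from the telomere side to the centromere side; points are libraries, short bars are means of 3, shSTN1 at the left of each gene and control at the right. The points of CNTLN, CDKN2A, CDKN2B-AS1 and CDKN2B lie at 0 in shSTN1 and between 3.36 and 211 CPM in control.

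A further 13 genes were up to 5-fold lower in shSTN1, from 1.47-fold lower for ZDHHC21 to 4.82-fold lower for HAUS6. HAUS6, a subunit of the augmin complex that branches spindle microtubules, stood at 15.5, 17.5 and 16.9 CPM in shSTN1, against 83.7, 82.7 and 73.6 CPM in control (log2 fold change -2.27, SE 0.0773). PSIP1, whose product LEDGF tethers proteins to active chromatin, stood at 42.6, 39.7 and 42.2 CPM in shSTN1 and averaged 41.5 ± 1.56 CPM, against 168 ± 10.9 CPM in control (log2 fold change -2.02, SE 0.0623). RPS6, the ribosomal protein phosphorylated by S6 kinase, had 6971, 6812 and 5464 reads in shSTN1, against 27841, 24233 and 21918 in control. It averaged 321 ± 17 and 1204 ± 129 CPM in shSTN1 and control, a log2 fold change of -1.91 (SE 0.0986), and processed copies of the gene elsewhere in the genome can share its reads. TTC39B, a tetratricopeptide repeat gene, stood at 2.27 ± 0.478 CPM in shSTN1, against 7.43 ± 1.14 CPM in control (log2 fold change -1.73, SE 0.213). FOCAD, a focal adhesion protein gene, stood at 12.1, 12.0 and 11.1 CPM in shSTN1, against 33.5, 34.0 and 38.9 CPM in control (log2 fold change -1.59, SE 0.0784). For each of these genes the shSTN1 libraries all lay below the control libraries.

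Among the listed genes with smaller differences, DENND4C, an activator of RAB GTPases in vesicle traffic, had a log2 fold change of -1.47 (SE 0.149), from 6.94 ± 1.24 CPM in shSTN1 and 19.4 ± 0.816 CPM in control. ACER2, a ceramidase of the Golgi, was at -1.22 (SE 0.249), with 19, 38 and 23 reads in shSTN1 and 62, 75 and 55 in control. CCDC171, with 21, 31 and 30 reads in shSTN1 and 67, 63 and 59 in control, was at -1.16 (SE 0.208). KLHL9, a substrate adaptor of CUL3 ubiquitin ligase in mitosis, stood at 15.8, 17.2 and 17.2 CPM in shSTN1, against 39.1, 35.7 and 34.7 CPM in control (log2 fold change -1.13, SE 0.0646). RRAGA, a Rag GTPase that brings mTORC1 to lysosomes, stood at 25.5, 26.0 and 26.8 CPM in shSTN1, against 46.9, 46.2 and 50.5 CPM in control. SNAPC3, a subunit of the complex that starts small nuclear RNA transcription, stood at 21.7, 20.2 and 24.9 CPM in shSTN1, against 43.2, 43.0 and 35.9 CPM in control. RRAGA and SNAPC3 had the same fold, 1.83-fold lower. MPDZ, a tight junction scaffold at the telomere end of the region, was at -0.73 (SE 0.0937). ZDHHC21, a palmitoyltransferase gene, was at -0.55 (SE 0.229), with 6.21 ± 1.00 CPM in shSTN1 and 9.10 ± 1.88 CPM in control. Its groups did not overlap, by the narrow margin of 6.84 CPM in the highest shSTN1 library and 6.99 CPM in the lowest control library. SNAPC3 and PSIP1 overlap over 1888 bases on opposite strands, so reads there cannot be assigned to either without the strand setting.

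Few listed genes were level or higher. NFIB, a nuclear factor I transcription factor gene, stood at 16.2, 16.8 and 13.7 CPM in shSTN1, against 12.3, 15.9 and 11.3 CPM in control, and BNC2, a zinc finger gene, at 7.47, 6.60 and 8.34 CPM, against 6.50, 6.62 and 6.99 CPM. The groups overlap for both genes, with log2 fold changes of 0.24 (SE 0.173) and 0.15 (SE 0.101). PLIN2, which coats lipid droplets, stood at 38.1, 41.3 and 41.0 CPM in shSTN1, against 29.5, 25.1 and 30.2 CPM in control, with no overlap and a log2 fold change of 0.51 (SE 0.0923). It lies between HAUS6 and DENND4C, both lower. HACD4, an enzyme of very long fatty acid synthesis, had 17, 31 and 16 reads in shSTN1 and 11, 18 and 7 in control (log2 fold change 0.86, SE 0.345), and its CPM ranges nearly meet, at 0.830 CPM in the lowest shSTN1 library and 0.805 CPM in the highest control library.

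Levels per kilobase of annotated exon put RPS6 first in both groups, at 118 ± 6.26 CPM per kb in shSTN1 and 444 ± 47.4 CPM per kb in control. In shSTN1 the order went on with RRAGA at 16.4 ± 0.409, PLIN2 at 7.89 ± 0.348 and PSIP1 at 6.13 ± 0.230 CPM per kb. In control it went on with CDKN2A at 44.4 ± 4.37, RRAGA at 30.1 ± 1.45, PSIP1 at 24.8 ± 1.62 and HAUS6 at 10.1 ± 0.704 CPM per kb. These neighbours in the order lay further apart than their SDs. KLHL9, SNAPC3 and PLIN2, next in control at 6.40 ± 0.398, 6.09 ± 0.617 and 5.55 ± 0.549 CPM per kb, did not differ beyond theirs.

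The filter on low counts kept 28 of the 33 genes, and CER1, SAXO1, SLC24A2, IFNB1 and IFNE did not pass it. At least 2-fold lower values were fitted for 19 of the 28, against 19.0% of all 17451 genes fitted, and at least 2-fold higher values for 1, against 15.8%. The groups did not overlap for 23 lower and 3 higher genes of the 28, against 39.0% and 36.6% of all genes. Since the genes were listed with this comparison known, nothing is read from these shares.

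**Figure D3:**
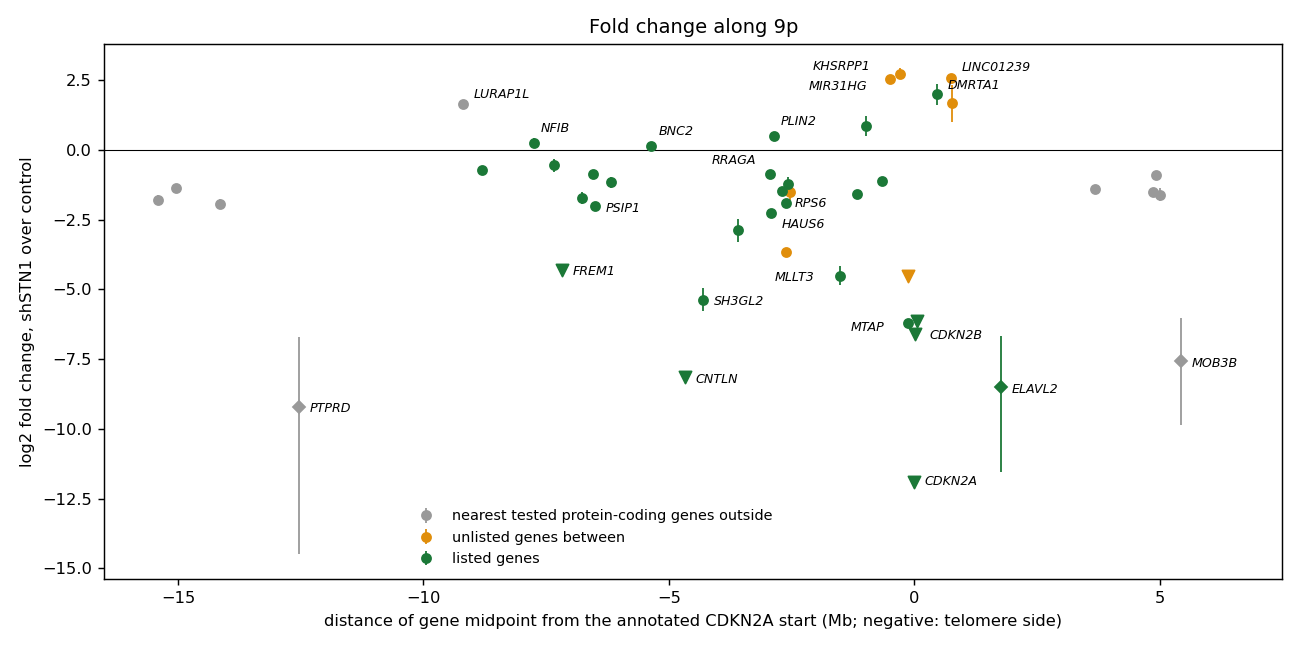
Log2 fold change of shSTN1 over control against the distance of each gene's midpoint from the CDKN2A start, for listed genes, unlisted genes between them and the nearest tested protein-coding genes outside. Circles are fitted values with SE, triangles are limits for genes with 0 shSTN1 reads (3 reads assumed, so the true value lies lower), and diamonds are ratios of genes with 1 to 3 reads and their 95% intervals; CDKN2A lies lowest, and DMRTA1, MIR31HG, KHSRPP1 and LINC01239 close to it lie above 0.

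Genes of chromosome 9 that were not used to draw up the list were tested, with an edgeR adjusted p of 0.05 as the threshold. Over all 17451 genes tested, 38.5% were lower and 35.6% higher in shSTN1 by this rule. At the telomere side of the span, 24 of 31 tested genes were lower and 1 was higher in shSTN1, and the median of their log2 fold changes was -1.21, where that of all genes was -0.03. At the centromere side, between ELAVL2 and the centromere, 34 of 119 were lower and 56 higher (median 0.30). On the long arm 253 of 502 were lower and 114 higher (median -0.34). The lower genes of the short arm continued a few megabases beyond ELAVL2: all 7 tested genes between 25 and 30 Mb, a thinly filled bin, were lower (median -1.49). Between 30 and 35 Mb 12 of 48 were lower and 20 higher (median 0.17). Between 35 and 40 Mb 12 of 54 were lower and 33 higher (median 0.78), and between 40 and 45 Mb 3 of 10 were lower and 3 higher (median -0.01). These counts describe the arms, and no set test was run on them.

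The span itself holds 125 unlisted genes, of which 73 had no reads and 7 passed the filter. All 7 passed the test, 4 higher and 3 lower in shSTN1. For AL359922.2 the call is only a description, since the interval around it was drawn by the absence of shSTN1 reads. Of the higher ones, AC017067.1 lies within LINC01239, so their reads may be shared. The split was 4 higher and 7 lower without the filter, and 3 higher and 4 lower without control replicate 2. Besides AL359922.2, the lower ones were AL391834.2, with 2, 1 and 1 reads in shSTN1, against 18, 21 and 18 in control (edgeR adjusted p = 2.73e-06), and AL158206.1, with 9, 21 and 14 reads in shSTN1, against 44, 49 and 36 in control (log2 fold change -1.50, edgeR adjusted p = 1.85e-04). Both lie more than 2 Mb to the telomere side of CDKN2A, and AL391834.2 overlaps RPS6 over 282 bases on the opposite strand, so that reads of both may be mixed. The 16 unlisted protein-coding genes of the span had 6 reads in shSTN1 and 1 in control in sum.

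The nearest tested genes outside the span were mostly lower too. LURAP1L, next to MPDZ, was the exception, at 15.1 ± 0.643 CPM in shSTN1 and 4.76 ± 0.698 CPM in control (log2 fold change 1.66, edgeR adjusted p = 3.36e-12). PTPRD, a receptor tyrosine phosphatase gene, had 0, 0 and 1 reads in shSTN1, against 189, 229 and 187 in control (edgeR adjusted p = 5.23e-19), a control to shSTN1 ratio of 589 with an exact 95% interval of 105 to 23291. DMAC1 (-1.93), GLDC (-1.79) and KDM4C (-1.37) on the same side had edgeR adjusted p of 1.65e-14, 1.93e-16 and 7.49e-12. Beyond ELAVL2, TUSC1 (-1.38), CAAP1 (-1.49), PLAA (-0.89) and IFT74 (-1.61) had edgeR adjusted p between 1.14e-13 and 7.36e-10. MOB3B, further on, had 3, 0 and 0 reads in shSTN1, against 209, 210 and 170 in control (edgeR adjusted p = 5.04e-18), a ratio of 191 (95% interval 65.1 to 929), and all its shSTN1 reads came from replicate 1.

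The proteins of the listed genes work with partners encoded elsewhere, and those partners were tested. Among 19 genes around CDK4, CDK6 and the retinoblastoma protein, the axis that p16INK4a and p15INK4b restrain, 4 were higher and 9 lower in shSTN1 (median log2 fold change -0.22). Cyclin D2 (CCND2) fell to 1.91 ± 0.247 CPM in shSTN1, against 70.8 ± 3.65 CPM in control (log2 fold change -5.20, edgeR adjusted p = 1.02e-26). Cyclin D1 (CCND1) rose to 276 ± 9.42 CPM, against 126 ± 17.8 CPM (1.13, edgeR adjusted p = 4.71e-15), and E2F2 (-1.26) and RBL2 (-0.59) fell, with edgeR adjusted p of 3.17e-14 and 2.41e-07. RB1, CDK6, E2F1, CDKN1B, CDKN1C and CDKN2D did not pass. Of 10 genes around ARF, MDM2 and p53, 7 were lower and 1 higher (median -0.28). GDF15, a secreted stress factor, rose (2.57, edgeR adjusted p = 3.33e-24), while the death effector genes BBC3 (-1.72, edgeR adjusted p = 7.12e-14) and BAX (-0.55, 1.09e-07) and the CDK inhibitor gene CDKN1A (-0.39, 8.67e-05) fell. MDM2 itself did not pass.

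Genes that share a pathway with MTAP went both ways. Of 16 genes of methionine salvage, polyamine synthesis and the arginine methyltransferase PRMT5, which the substrate of MTAP inhibits, 4 were higher and 9 lower (median -0.23). MRI1, the salvage enzyme that follows MTAP, fell to 23.6 ± 1.71 CPM in shSTN1, against 101 ± 3.72 CPM in control (log2 fold change -2.10, edgeR adjusted p = 4.69e-21). MAT2A, which makes S-adenosylmethionine, rose to 496 ± 15.3 CPM, against 259 ± 7.66 CPM (0.94, edgeR adjusted p = 3.26e-15). The PRMT5 partner genes WDR77 (-1.03, edgeR adjusted p = 4.55e-15) and RIOK1 (-0.96, 1.92e-11) fell. The receptor and signalling genes of type I interferons, the family of IFNB1 and IFNE, had 4 of 9 higher and 2 lower (median 0.55), with IRF7 (2.21, edgeR adjusted p = 7.35e-16), IRF9 (1.27, 1.23e-04) and JAK1 (0.73, 2.79e-11) among the higher ones.

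Fellow subunits of the complexes that RPS6, HAUS6, RRAGA, SNAPC3 and MLLT3 belong to were measured beside them. The listed genes were chosen with this comparison known, so their values are set next to those of the partners only as a description. The other 31 tested genes of the small ribosomal subunit had 8 higher and 13 lower members, a median of 0.05 and a lowest value of -1.07 (RPS4X, edgeR adjusted p = 1.19e-14), next to -1.91 for RPS6. RPS16 was the most raised (2.16, edgeR adjusted p = 7.07e-23), and RPS2 (-0.89, 1.22e-13) and RPS15 (-0.80, 3.97e-12) fell. The other augmin genes had 3 of 7 lower and 0 higher (median -0.24), with HAUS5 at -0.47 (edgeR adjusted p = 1.40e-06) and HAUS3 at -0.45 (6.05e-04), next to -2.27 for HAUS6. HAUS1 (-0.26, edgeR adjusted p = 0.0356) did not pass without control replicate 1 (0.150), shSTN1 replicate 1 (0.143) or shSTN1 replicate 3 (0.0984), and HAUS8 stood at 0.23 (0.0607). Of 8 Rag and Ragulator genes, 5 were higher and 1 lower (median 0.20). RRAGC (0.76, edgeR adjusted p = 8.70e-08), RRAGB (0.45, 0.00114) and LAMTOR1 (0.42, 1.87e-05) rose, and RRAGD fell (-0.88, edgeR adjusted p = 1.30e-09), next to a log2 fold change of -0.87 for RRAGA. DESeq2 called 3 of the 8 higher.

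Of the other 4 genes of the small nuclear RNA activating complex, SNAPC2 (0.90, edgeR adjusted p = 4.08e-10), SNAPC5 (0.53, 4.50e-05) and SNAPC1 (0.34, 0.0345) were higher and SNAPC4 (-0.28, 0.00120) lower. The SNAPC1 call was lost in 7 of its alternatives, with adjusted p from 0.0329 to 0.130 over all of them. The super elongation and DOT1L genes had 6 of 11 lower and 0 higher (median -0.31), among them AFF3 (-1.97, edgeR adjusted p = 2.85e-12), MLLT10 (-0.66, 3.26e-07), DOT1L (-0.62, 6.16e-09) and AFF1 (-0.40, 3.08e-04). These came next to -4.50 for MLLT3. Paralogs of the listed genes had 10 of 34 tested higher and 19 lower (median -0.29). SH3GL3, the paralog of SH3GL2, had 0 reads in shSTN1 and 923 in control (edgeR adjusted p = 1.24e-20), and FREM2, the paralog of FREM1, fell (-5.17, edgeR adjusted p = 1.21e-17). Of its 24 shSTN1 reads 17 came from replicate 2, and without that library the FREM2 log2 fold change was -6.26. PLIN3 (1.23, edgeR adjusted p = 5.21e-18) and NFIX (1.14, 1.10e-14) rose. Of all tested genes 74.1% passed the same threshold, 35.6% higher and 38.5% lower. No set test was run on the lists, and nothing is read from their counts.

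**Figure D4:**
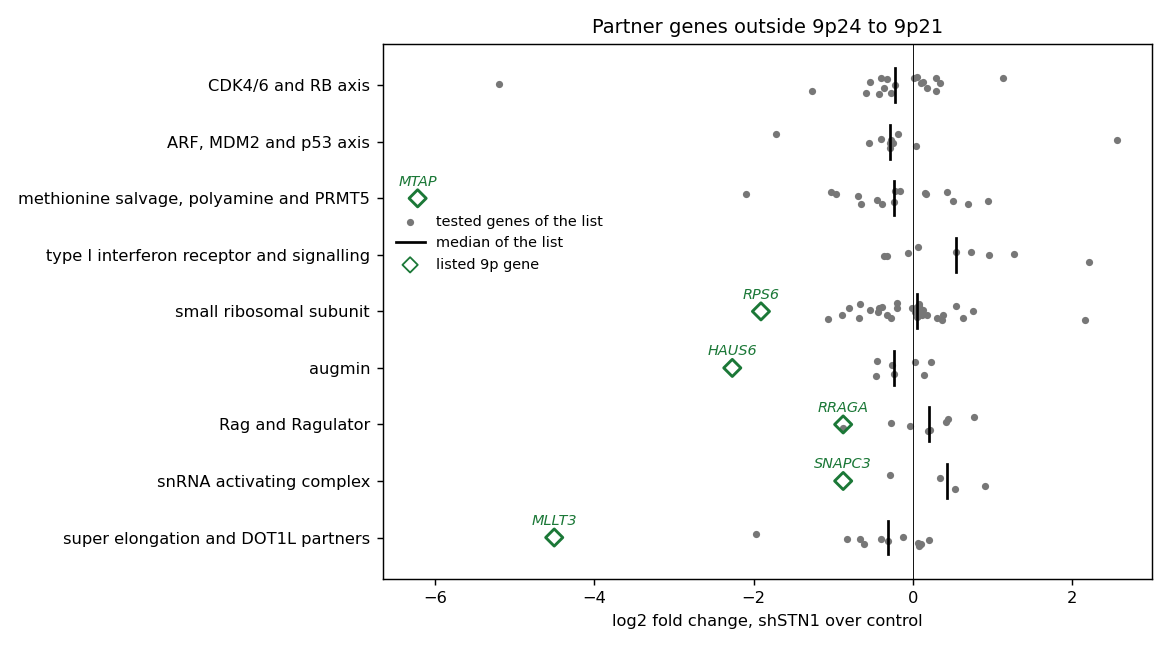
Log2 fold change of shSTN1 over control for the tested genes of 9 partner lists (grey points), the median of each list (black bar) and the listed 9p gene that belongs to it (open diamond). CDKN2A and CDKN2B, with 0 reads in shSTN1, and the interferon genes are not drawn, so their lists hold no diamond. RPS6, HAUS6, SNAPC3, MLLT3 and MTAP lie below every grey point of their list, and RRAGA lies level with RRAGD, the lowest of its list. The listed 9p genes were chosen with this comparison known, so their low place is only described.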

How the data were processed

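Bulk RNA sequencing was measured in 3 shSTN1 and 3 control libraries. The table the authors deposited holds raw counts of reads for each gene. The submitters' processing notes name GRCh38, featureCounts 2.0.1, STAR 2.7.2b, FastQC and cutadapt. Annotation release and strand setting: not given in the sources used here. Of 60668 rows, 45 second copies of pseudoautosomal genes were left out. Coordinates and exon lengths came from GENCODE 29 (58516 identifiers matched without version).

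The counts of all 6 libraries were fitted with edgeR 4.0.16 (R 4.3.3): filterByExpr, TMM factors, robust quasi-likelihood test, no covariates, Benjamini-Hochberg adjustment over 17451 genes, threshold 0.05. Simulated data served to check the script. CPM use TMM-scaled library sizes and are mean ± SD of 3. SEs are those of the difference of mean log2 CPM (prior count 2). Bounds assume 3 reads over the group at 0, and intervals are exact at 95%; both cover counting error only. Replicates are called biological in the titles, but separate cultures are not described, so a p-value reflects only how these libraries vary, possibly for technical reasons. No library was a repeat of another: chi-square within groups was 2.95 to 8.73 per degree of freedom.

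The genes, gene lists and tests were chosen with earlier results of these data known. Named besides the 33 genes were up to 4 genes per partner list with the smallest adjusted p, the 5 nearest tested protein-coding genes on each side and unlisted genes with 10 or more reads; low ones among these, and genes named only as not passing, are given as counts or by name. One gene that the rule names is not reported here. CDK6, CDKN1B, CDKN1C, CDKN2D, E2F1, RB1, MDM2 and the single cell type markers were named after their values were seen. DESeq2 1.42.0, limma-voom (limma 3.58.1), RLE and upper-quartile factors, no low-count filter, a replicate block and leaving out each library were alternatives. Figures used matplotlib 3.10.9. Protein sequences were not used here.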

Additional observations from a re-analysis of the deposited data

How the results depend on the processing

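None of the 28 listed genes that were fitted changed direction under the alternatives run, nor did the tested genes named by rule. CER1, SAXO1, SLC24A2, IFNB1, IFNE and the genes and markers named after their values were seen were not followed through them. The number of listed genes fitted at least 2-fold lower was 19, with 21 without a low-count filter and 18 to 19 when 1 library was left out. Unlisted genes of the span past the threshold numbered 7, with 11 without a low-count filter, since more genes were then tested, and 7 to 8 with 1 library left out. Chromosome 9 genes outside the span past the threshold numbered 482, and 471 to 487 with 1 library left out, and all genes 12929, with 12451 by DESeq2, 13901 without a filter and 12586 to 12857 with 1 library left out. With the replicate number as a block there were 12742, 477 and 7 calls in all genes, chromosome 9 and unlisted genes. Deviations of libraries with the same replicate number correlated at -0.0123, 0.0171 and -0.0337, and shared numbers were not taken as pairs. The STN1 log2 fold change ran from -0.22 to -0.06 with 1 library left out. Fitted folds of genes without reads in shSTN1 depend on the tool, and so bounds are given in their place. Depth limits the low genes: IFNE, with 31 reads in shSTN1 and 8 in control, did not pass the filter on low counts.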
